A study of Mus musculus with 4 samples.

Results

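The retinoic acid genes of tumour endothelial cells were read at very different levels, with the receptors Rara and Rarg and the synthesis enzyme Aldh1a3 the highest per length. The set holds 9 genes of the 55367 gene names in the deposited count table: the enzymes Aldh1a1, Aldh1a2 and Aldh1a3, the receptors Rara, Rarb and Rarg, the binding protein Crabp2, the degrading enzyme Cyp26b1 and the retinol importer Stra6. They were picked by name, and the set was put together because Aldh1a3 was among the leading genes that were higher with anti-CD93. The Aldh1a3 difference between treatments is therefore given as a description and supports nothing else.

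Retinoic acid is a signal made from vitamin A. Retinol is carried in blood, taken up through STRA6, oxidised to retinal by retinol dehydrogenases and then, irreversibly, to retinoic acid by the retinaldehyde dehydrogenases ALDH1A1, ALDH1A2 and ALDH1A3. Inside the cell retinoic acid is bound by CRABP2, which hands it to nuclear receptors, or is cleared by CYP26 enzymes. The receptors RARα, RARβ and RARγ bind DNA as pairs with retinoid X receptors and can hold target genes silent until the ligand arrives. In the embryo this pathway is needed for the formation of blood vessels and of the heart.

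RNA was sequenced from 4 libraries of endothelial cells sorted from tumours. In both groups KPC cells, a mouse pancreatic cancer line, had been implanted under the skin of C57BL/6 mice, the mice were given antibody by intraperitoneal injection 48 hours before cells were taken, and the sort kept cells carrying CD31 and lacking CD45. One group received anti-CD93 antibody (2 libraries), directed against a transmembrane receptor of endothelial cells, and the other received control Rat IgG (2 libraries). Age and sex of the mice are not stated in the labels, nor whether the 2 libraries of a group came from separate mice or from pooled tumours, so the p-values speak for the spread among these libraries only, which may be technical. All of the cells came from tumours of 1 implanted model, and the libraries are bulk RNA, so fewer cells of a type and less RNA per cell cannot be told apart.

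Reads assigned to genes numbered 17813993 and 13808077 in anti-CD93 replicates 1 and 2, against 12264231 and 9364294 in control IgG replicates 1 and 2. Control IgG replicate 2 stood apart, with the fewest reads but 27718 genes detected, against 23796 to 25430 in the other libraries. Levels below are CPM, reads per 1e6 reads of the tested genes after TMM scaling, and 1 read corresponds to 0.0565 and 0.0727 CPM in the anti-CD93 libraries and to 0.0816 and 0.107 CPM in the control IgG libraries. The endothelial label was checked by Pecam1 (CD31), at 1661 and 1663 CPM with anti-CD93 and 1685 and 1872 CPM with control IgG, and Cdh5 (VE-cadherin), at 2561 and 2465 against 2511 and 3301 CPM. The targeted Cd93 was at 1716 and 1514 CPM with anti-CD93 and at 1530 and 1759 CPM with control IgG. Leukocyte Ptprc (CD45) stayed between 2.32 and 5.08 CPM, whereas the epithelial keratin Krt18 was at 508 and 429.7 CPM with anti-CD93 and at 389.7 and 632 CPM with control IgG. All 10 tumour epithelial markers examined had reads in every library.

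Differences between treatments were tested by edgeR's quasi-likelihood test over all 16945 genes with enough reads, and a gene was called at a Benjamini-Hochberg adjusted p under 0.05. Of these genes 0 were called (0% of those tested), with 761 (4.49%) at an unadjusted p under 0.05. DESeq2 called 5 genes, Aldh1a3 among them, and limma-voom called 0. That call rests on the values that chose the set and is no separate evidence. Of the 9 retinoic acid genes 7 had enough reads to be tested, Aldh1a2 and Crabp2 being too low, and 0 of the 7 passed by edgeR. The treatments did not overlap for 4 of these 7 genes, with anti-CD93 above in 2 and below in 2. Of all tested genes 39.8% did not overlap, with anti-CD93 above in 20.1% and below in 19.7%. The median log2 fold change, anti-CD93 over control IgG, was -0.28 over the 7 genes and -0.01 over all tested genes.

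**Figure D1:**
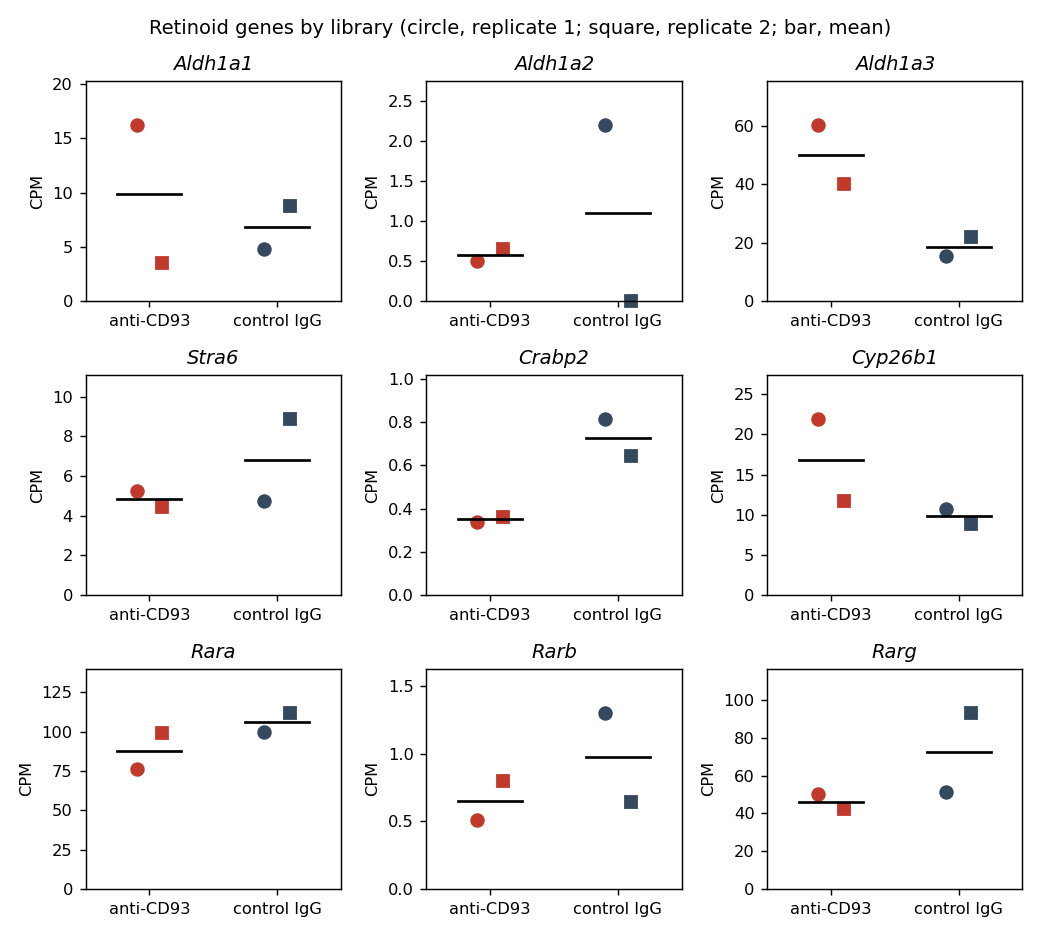
CPM of the 9 retinoic acid genes in each of the 4 libraries, 1 panel per gene, with anti-CD93 points left of control IgG points and a bar at each group mean. Only Aldh1a3 and Cyp26b1 have both anti-CD93 points above both control IgG points, and Rara, Rarg and Crabp2 have both below.

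The retinaldehyde dehydrogenases make the active ligand. Aldh1a3 (GRCm38 chr7:66390890-66427517, minus strand, 4617 exonic bases) had 1067 and 550 reads in anti-CD93 replicates 1 and 2, against 190 and 205 reads in control IgG replicates 1 and 2. Scaled for depth, these were 60.3 and 40.0 CPM with anti-CD93 and 15.5 and 21.9 CPM with control IgG. The lowest anti-CD93 library was thus above the highest control IgG library, while replicates within a treatment differed 1.51-fold with anti-CD93 and 1.42-fold with control IgG. Group means were 50.1 ± 14.4 CPM with anti-CD93 and 18.7 ± 4.56 CPM with control IgG (SD, n = 2 each). The fitted log2 fold change was 1.43 (SE 0.28), a 2.69-fold difference, and it stayed between 1.11 and 1.70 with any 1 library left out. By p-value Aldh1a3 was rank 7 of 16945. A list of 2113 genes held those with a mean of at least 5 CPM that were higher with anti-CD93 without overlap. Symbols starting with Gm or ending in Rik were left out of it. In that list Aldh1a3 came in place 2 by p-value, just after Bnip3 and just before Adgrl3. Bnip3 encodes a mitochondrial protein induced by low oxygen, and Adgrl3 is an adhesion receptor gene. Bnip3 had 38.4 and 40.9 CPM with anti-CD93 and 15.9 and 14.9 CPM with control IgG (log2 fold change 1.36), and Adgrl3 had 31.9 and 29.2 CPM with anti-CD93 and 15.8 and 9.96 CPM with control IgG (log2 fold change 1.24). These values placed Aldh1a3 in the set and are not tested here.

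Aldh1a1 (chr19:20492715-20643465, plus strand, 4937 exonic bases), whose product also oxidises other aldehydes, did not share that pattern. It had 16.2 and 3.49 CPM in the anti-CD93 libraries and 4.81 and 8.78 CPM in the control IgG libraries. The 2 anti-CD93 libraries were the highest and the lowest of the 4, a 4.65-fold gap between replicates, so the groups overlap. Means were 9.85 ± 9.0 CPM with anti-CD93 and 6.80 ± 2.80 CPM with control IgG (SD, n = 2 each), and the log2 fold change of 0.56 (SE 0.64) had an adjusted p of 0.853 by edgeR's quasi-likelihood test. That value was -0.94 without anti-CD93 replicate 1, 1.26 without anti-CD93 replicate 2, 0.19 without control IgG replicate 1 and 1.06 without control IgG replicate 2. Its coding sequence is 91.6% identical to that of Aldh1a7, a mouse relative, so reads may be split between them and both levels are uncertain. Identity is 69.9% between Aldh1a1 and Aldh1a2, 68.2% between Aldh1a1 and Aldh1a3 and 69.9% between Aldh1a2 and Aldh1a3. Aldh1a7 itself was at 1.36 and 1.02 CPM with anti-CD93 and at 0.897 and 3.10 CPM with control IgG.

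Aldh1a2 (chr9:71215789-71296243, plus strand, 2264 exonic bases) is the main retinoic acid producer of the early mouse embryo. It had 9 reads in each anti-CD93 library, against 27 and 0 reads in the control IgG libraries. The control libraries were thus the highest and the lowest, and the gene was not tested. At the depth of control IgG replicate 2 a count of 0 allows up to 0.321 CPM (3 reads, counting error only).

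Levels of different genes were compared per kilobase of exon. On that scale the 3 enzymes summed to 16.6 and 9.65 CPM per kb with anti-CD93 and to 5.30 and 6.53 CPM per kb with control IgG. Aldh1a3 made up 78.8% and 89.7% of this sum in the anti-CD93 libraries and 63.3% and 72.8% in the control IgG libraries, the larger part in every library. Aldh1a1 held 19.8% and 7.32% with anti-CD93 and 18.4% and 27.2% with control IgG. The share of Aldh1a2 was 1.36% and 2.99% with anti-CD93 and 18.3% and 0% with control IgG. The higher enzyme sums with anti-CD93 hold the Aldh1a3 reads that chose the set and are no separate evidence.

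**Figure D2:**
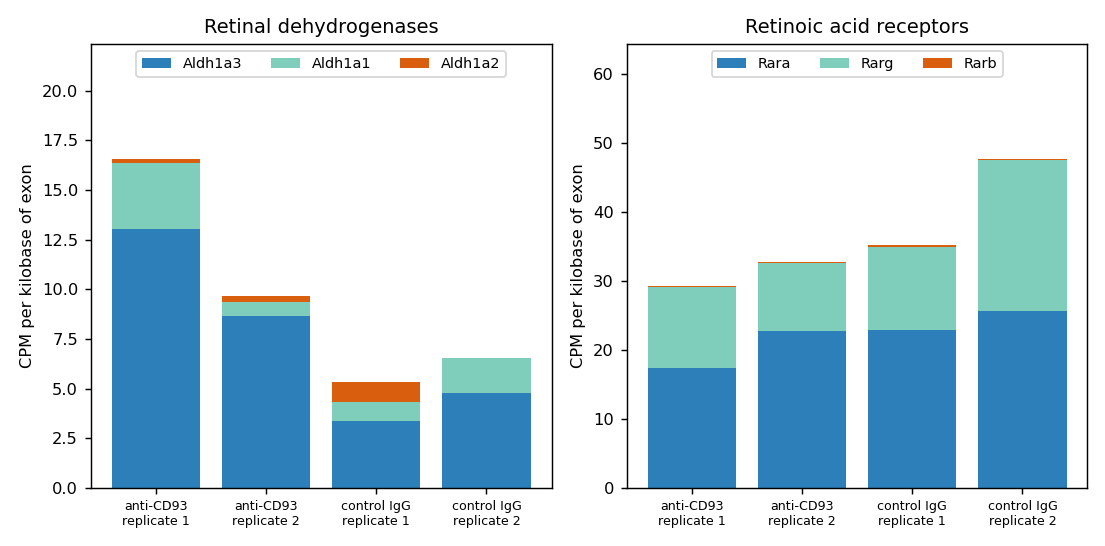
CPM per kilobase of exon, stacked by gene, for the 3 retinaldehyde dehydrogenases and the 3 retinoic acid receptors in each library, anti-CD93 libraries left of control IgG libraries. Aldh1a3 is the largest enzyme segment in all 4 libraries, and the receptor columns are nearly all Rara and Rarg.

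Cyp26b1 (chr6:84571414-84593908, minus strand, 5352 exonic bases) encodes a cytochrome P450 that inactivates retinoic acid. It had 388 and 161 reads in the anti-CD93 libraries and 132 and 83 in the control IgG libraries. In CPM these were 21.9 and 11.7 with anti-CD93 and 10.8 and 8.89 with control IgG. The groups did not overlap, although anti-CD93 replicate 2 was close to control IgG replicate 1 and the anti-CD93 replicates differed 1.87-fold. Means were 16.8 ± 7.23 CPM with anti-CD93 and 9.83 ± 1.33 CPM with control IgG (SD, n = 2 each). The log2 fold change of 0.77 (SE 0.34) did not pass, with an adjusted p of 0.812 by edgeR's quasi-likelihood test, and it was 0.26 without anti-CD93 replicate 1. Cyp26a1, the family member best known as a retinoic acid target, had 6 and 18 reads with anti-CD93 and 8 and 15 reads with control IgG, which is 0.339 and 1.31 CPM against 0.653 and 1.61 CPM.

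Stra6 (chr9:58063788-58153996, plus strand, 5829 exonic bases), the membrane receptor for retinol-binding protein, was low in all libraries. Its levels were 5.25 and 4.43 CPM with anti-CD93 and 4.73 and 8.89 CPM with control IgG. Control IgG replicate 2 was the highest and the other 3 libraries lay within 1 CPM of each other, so the groups overlap. The log2 fold change was -0.48 (SE 0.40), with an adjusted p of 0.817 by edgeR, and was 0.04 without control IgG replicate 2 and -0.87 without control IgG replicate 1. Crabp2 (chr3:87948666-87953376, plus strand, 1322 exonic bases), which carries retinoic acid into the nucleus, had 6 and 5 reads with anti-CD93 and 10 and 6 reads with control IgG. After depth scaling the anti-CD93 values of 0.339 and 0.363 CPM were below the control IgG values of 0.816 and 0.642 CPM, a difference of a few reads that was not tested.

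The receptors bring the signal to DNA. Rara (chr11:98927818-98974942, plus strand, 4365 exonic bases) was at 76.0 and 99.2 CPM in the anti-CD93 libraries and at 100.01 and 112 CPM in the control IgG libraries. Anti-CD93 replicate 2 was within 1 CPM of control IgG replicate 1, so the groups were separated by that small gap alone. Means were 87.6 ± 16.4 CPM with anti-CD93 and 106 ± 8.46 CPM with control IgG (SD, n = 2 each). The log2 fold change was -0.28 (SE 0.20, adjusted p 0.812 by edgeR), and it was -0.09 without anti-CD93 replicate 1 and -0.48 without anti-CD93 replicate 2.

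Rarg (chr15:102234938-102257517, minus strand, 4261 exonic bases) was at 50.1 and 42.1 CPM with anti-CD93 and at 51.5 and 93.5 CPM with control IgG. Control IgG replicate 2 was far above the other 3 libraries, which spanned less than 10 CPM. The group means were 46.1 ± 5.64 CPM with anti-CD93 and 72.5 ± 29.7 CPM with control IgG (SD, n = 2 each). The log2 fold change was -0.65 (SE 0.29) with an adjusted p of 0.812 by edgeR's quasi-likelihood test. It was -0.16 without control IgG replicate 2. With control IgG replicate 2 as the lone control, assumed to vary like the anti-CD93 libraries, it was -1.02 (adjusted p 0.00068 by edgeR), in a fit that called 26.8% of all tested genes.

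Rarb (chr14:16430839-16819156, minus strand, 5265 exonic bases), a receptor gene that retinoic acid itself induces in many cells, was nearly silent. It had 9 and 11 reads with anti-CD93 and 16 and 6 reads with control IgG, or 0.508 and 0.799 CPM against 1.31 and 0.642 CPM. The groups overlap, and the log2 fold change of -0.60 (SE 0.77) had an adjusted p of 0.868 by edgeR. That value was 0 without control IgG replicate 1 and -1.01 without control IgG replicate 2. Of its exonic bases 34.1% are shared with Top2b on the opposite strand, and the recorded counting used neither strand nor reads matching several genes, so Rarb reads from there could not be counted and its level is uncertain.

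Per kilobase, the 3 receptors summed to 29.3 and 32.8 CPM per kb with anti-CD93 and to 35.2 and 47.7 CPM per kb with control IgG. Rara held 59.5% and 69.4% of this sum in the anti-CD93 libraries and 65.0% and 53.8% in the control IgG libraries. The Rarg share was 40.2% and 30.2% with anti-CD93 and 34.3% and 46.0% with control IgG, and Rarb held at most 0.703% in any library. Averaged over the 4 libraries, the order of the 9 genes was Rara at 22.2, Rarg at 13.9, Aldh1a3 at 7.46, Cyp26b1 at 2.49, Aldh1a1 at 1.69, Stra6 at 0.999, Crabp2 at 0.409, Aldh1a2 at 0.372 and Rarb at 0.155 CPM per kb. Ranges over the 4 libraries overlapped for each neighbouring pair in this order, except Stra6 and Crabp2. There the lowest Stra6 value of 0.760 was above the highest Crabp2 value of 0.617 CPM per kb. Compared within each library, Rara was above Rarg, Aldh1a3 above Cyp26b1 and Stra6 above Crabp2 in every library.

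**Figure D3:**
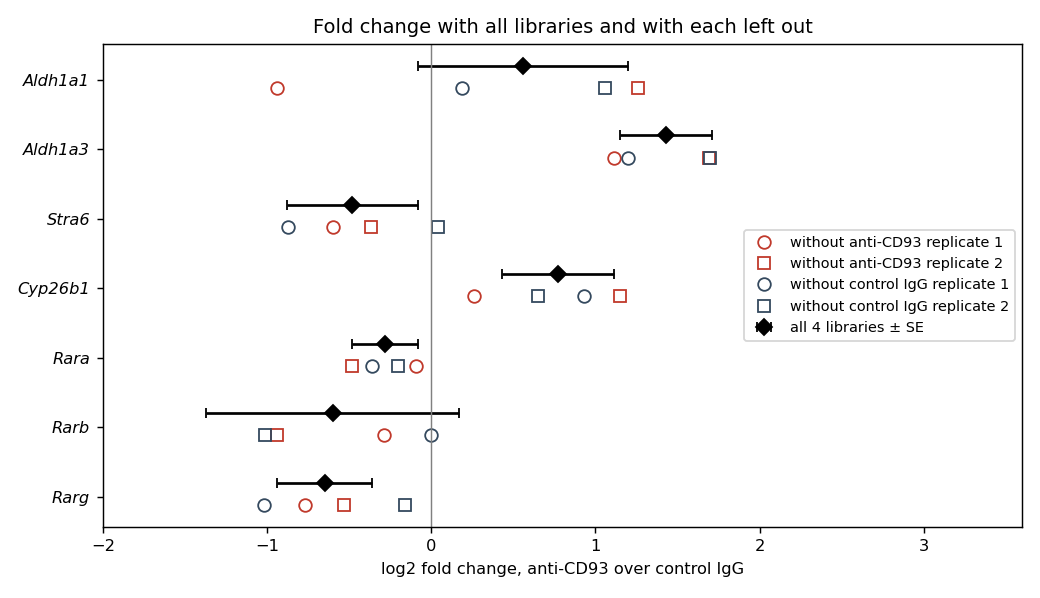
Log2 fold change, anti-CD93 over control IgG, of the 7 tested retinoic acid genes as black diamonds with bars of 1 SE, and open symbols for the fits that leave out the library named in the legend. Aldh1a3 at 1.43 lies farthest from 0, and the points of Aldh1a1, Rarb and Stra6 reach or cross 0.

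Rarb also carries the textbook retinoic acid response element, a direct repeat of a half-site with 5 bases between the copies. RefSeq promoter windows of GRCm38.p6, from 250 bases before to 50 after a start site, were searched on both strands for a direct repeat with a spacer of 1, 2 or 5 bases, each half-site being AGGTCA or the close forms AGTTCA or GGGTCA or else GGTTCA. There was no window for Aldh1a3 or Crabp2, so their promoters were not searched. Windows were found for the other 7 of the 9 genes, 15 windows in all. The 5-base spacing was found in 1 of them, for Rarb, and the spacings of 1 and 2 in 0. Over all 32851 windows, 0.0974% held the 5-base spacing, 0.222% the spacing of 1 and 0.268% the spacing of 2. Among the 69 windows of the wider retinoid gene list a Bco1 window held the spacing of 1, and a second 5-base element was in a Cyp26a1 window. The Rarb and Cyp26a1 windows are shown because induction of these genes is the usual sign of retinoic acid activity. Both genes had few reads here, the Rarb level is uncertain as said above, and retinoic acid activity was not tested. Capitals mark the element.
Rarb, chr14:16575427-16575726, minus strand: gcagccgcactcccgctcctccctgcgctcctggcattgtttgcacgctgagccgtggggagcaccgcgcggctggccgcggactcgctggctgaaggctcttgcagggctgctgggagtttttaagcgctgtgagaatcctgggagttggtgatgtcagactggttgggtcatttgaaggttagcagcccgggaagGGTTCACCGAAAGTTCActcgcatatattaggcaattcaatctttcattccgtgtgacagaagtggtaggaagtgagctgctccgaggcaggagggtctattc
Cyp26a1, chr19:37697558-37697857, plus strand: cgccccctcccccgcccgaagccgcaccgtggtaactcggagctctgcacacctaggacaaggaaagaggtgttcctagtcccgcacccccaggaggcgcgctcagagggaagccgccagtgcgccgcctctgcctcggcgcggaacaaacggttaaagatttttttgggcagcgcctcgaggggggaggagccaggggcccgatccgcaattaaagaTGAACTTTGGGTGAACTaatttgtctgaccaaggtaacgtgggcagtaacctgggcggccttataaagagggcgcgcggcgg
The Rarb element reads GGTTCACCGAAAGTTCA and ends 36 bases before the start site. The Cyp26a1 element reads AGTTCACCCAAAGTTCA on the other strand, so the capitals above are its reverse complement, and it ends 15 bases before the start site. A match is a description of the letters and shows neither a bound receptor nor a cause of these levels.

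The rest of the pathway was followed over a list of 64 retinoid genes by role, the 9 genes included. Of these 60 had reads and 48 were tested. By edgeR's quasi-likelihood test 0 were called in either direction, against 0% of all tested genes. Groups were separated for 20 of the 48, with anti-CD93 above in 9 and below in 11, beside the 39.8% of all tested genes. The median log2 fold change was -0.14, with 17 values above 0 and 31 below. Over all tested genes 8325 values were above 0 and 8620 below, with a median of -0.01. Without the 9 genes the median of the other 41 tested genes was also -0.14. The median over the 48 genes was nearly the same under the other scalings, but it was -0.33 without anti-CD93 replicate 2 and 0 without control IgG replicate 2.

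Among the carriers of retinol, Rbp4, the carrier in blood, was at 29.5 and 22.5 CPM with anti-CD93 and 21.4 and 24.1 CPM with control IgG. Rbp7, a cellular retinol-binding protein, was at 32.5 and 23.0 CPM with anti-CD93 and 22.7 and 17.98 CPM with control IgG, where the lowest anti-CD93 library was only just above the highest control (log2 fold change 0.45, SE 0.25, adjusted p 0.812 by edgeR). The Rbp7 value was 0.18 without anti-CD93 replicate 1 and 0.29 without control IgG replicate 2. Of the 7 carriers and importers tested, the median log2 fold change was -0.14.

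Storage and lipid handling genes had a median log2 fold change of -0.12 over 6 tested. Scarb1, a lipoprotein receptor that also takes up carotenoids, was at 271 and 262 CPM with anti-CD93 and 285 and 415 CPM with control IgG. Lipe, a hormone-sensitive lipase, was at 38.8 and 40.1 CPM with anti-CD93 and 44.8 and 57.7 CPM with control IgG. Both were lower in both anti-CD93 libraries, with log2 fold changes of -0.39 (SE 0.21) and -0.38 (SE 0.20) that did not pass. Without control IgG replicate 2 they were -0.10 for Scarb1 and -0.19 for Lipe, and without control IgG replicate 1 they were -0.64 and -0.55. Dgat1, an acyltransferase that can esterify retinol, was at 12.4 and 17.2 CPM with anti-CD93 and 14.1 and 19.1 CPM with control IgG.

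The genes most read per length in the step between retinol and retinal were Rdh10, Dhrs3 and Adh5. Rdh10, the retinol dehydrogenase needed in the mouse embryo, was at 38.8 and 39.3 CPM with anti-CD93 and 39.6 and 31.3 CPM with control IgG. Dhrs3, which turns retinal back to retinol, was at 40.1 and 34.1 CPM with anti-CD93 and 32.9 and 37.7 CPM with control IgG. Adh5, of the alcohol dehydrogenase family, was at 34.5 and 31.4 CPM with anti-CD93 and 39.3 and 32.0 CPM with control IgG. None of these 3 separated the groups. Of 11 tested genes of this step 2 were higher and 3 lower in both anti-CD93 libraries, beside 20.1% and 19.7% of all tested genes. By edgeR 0 of the 11 passed, and the log2 fold changes ran from -1.14 to 0.48 with a median of -0.12. The ends of that range, picked after their values were seen, are Adh1, an alcohol dehydrogenase gene, at 0.678 and 0.727 CPM with anti-CD93 and 1.31 and 1.82 CPM with control IgG, and Rdh14, a retinol dehydrogenase gene, at 7.80 and 7.92 CPM with anti-CD93 and 6.20 and 5.03 CPM with control IgG. Among the binding proteins, Fabp5, which can carry retinoic acid to other receptors, was at 89.5 and 54.1 CPM with anti-CD93 and 59.3 and 86.2 CPM with control IgG. Crabp1, a cytoplasmic relative of Crabp2, was at 2.26 and 3.41 CPM with anti-CD93 and 5.47 and 3.21 CPM with control IgG, so the groups overlap for both.

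Partner receptors were read alongside Rara and Rarg. Rxra was at 47.3 and 50.9 CPM with anti-CD93 and 48.8 and 59.7 CPM with control IgG, and Rxrb at 31.1 and 32.3 CPM with anti-CD93 and 33.9 and 54.5 CPM with control IgG. Rxrg had reads in control IgG replicate 2 alone. All 5 tested receptor genes had a log2 fold change below 0, with a median of -0.48, and 0 of them passed the test. Left-out libraries brought Rarb to 0 (without control IgG replicate 1) and Rxra to 0.01 (without control IgG replicate 2). The Rxrb value of -0.48 was -0.10 without control IgG replicate 2 and -0.78 without control IgG replicate 1. Control IgG replicate 2 was the highest library for 4 of the 5, Rarb being the exception. Of the co-regulators, the corepressor Ncor1 was at 407 and 399.6 CPM with anti-CD93 and 370.1 and 356 CPM with control IgG. The coactivator Ncoa3 was at 147 and 142 CPM with anti-CD93 and 158 and 167 CPM with control IgG. The differences of Ncor1 (log2 fold change 0.15, SE 0.16) and Ncoa3 (-0.17, SE 0.17) were about as large as their standard errors.

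Textbook retinoic acid targets numbered 19, of which 14 were tested, 4 with a log2 fold change above 0 and 10 below. Their median log2 fold change was -0.22, and 0 were called in either direction by edgeR. Rarb, Cyp26b1, Crabp2 and Stra6 are among these targets, as are Cyp26a1 and Dhrs3. Tgm2, which encodes tissue transglutaminase and is abundant in endothelium, was at 198 and 227 CPM with anti-CD93 and 259 and 395 CPM with control IgG. The groups did not overlap, and the log2 fold change of -0.62 (SE 0.23) had an adjusted p of 0.812 by edgeR. It was -0.29 without control IgG replicate 2. Leaving out control IgG replicate 1 gave -0.90.

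**Figure D4:**
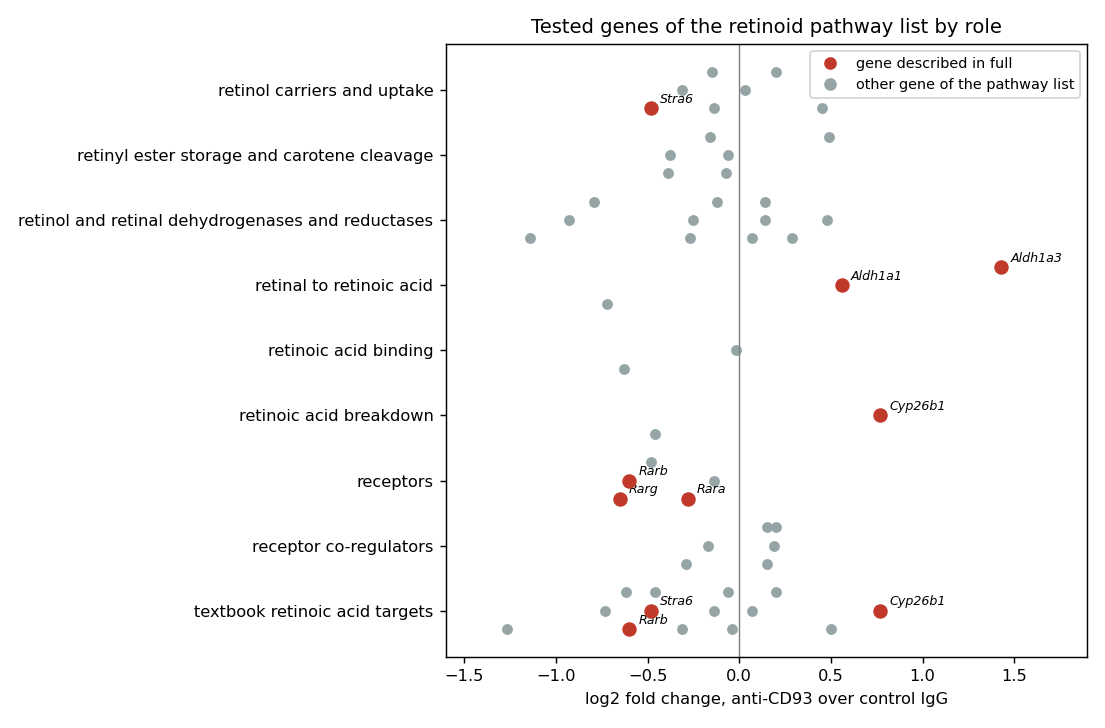
Log2 fold change, anti-CD93 over control IgG, of each tested gene of the retinoid list, in rows by role, with labelled red points for the 7 tested genes of the set and grey points for the others; height within a row has no meaning, and a gene with 2 roles is drawn in both rows. The 5 receptor genes all lie below 0 with all 4 libraries in the fit, and Aldh1a3 at 1.43 is the point farthest to the right.

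The genes with profiles most like that of Aldh1a3 over the 4 libraries were found by the smallest root mean square difference between centred log2 CPM values. The search covered 10228 tested genes with a mean of at least 5 CPM, again without symbols starting with Gm or ending in Rik. The nearest were Cnksr2, a scaffold protein gene, at 0.144, Ppp1r3b, a glycogen-targeting phosphatase subunit gene, at 0.159, Prl2c2 of the prolactin family at 0.185, Sh2d4a, an adaptor protein gene, at 0.212, and Gpa33, an epithelial surface antigen gene, at 0.229, where the median gene was at 0.776. Gpa33 was at 29.0 and 17.9 CPM with anti-CD93 and 9.05 and 14.7 CPM with control IgG. Prl2c2 has near-identical copies, so its level is uncertain. Of the other retinoic acid genes Cyp26b1 was the closest, at 0.457 and rank 109, and Aldh1a1 came at rank 6746. With 4 libraries a likeness of profiles is a description of these libraries.

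Because all 10 epithelial markers were present, their levels are given beside those of Aldh1a3. Summed over the 10 markers they came to 2519 and 2120 CPM with anti-CD93 and to 1778 and 2577 CPM with control IgG. These sums overlap, but most of each sum was Krt8, Krt18 and Krt19. Krt8 was at 855 and 712 CPM with anti-CD93 and 617 and 937 CPM with control IgG. Krt19 was at 411 and 295 CPM with anti-CD93 and 274 and 448 CPM with control IgG. The sum without the keratins was not compared. Aldh1a3 was higher in both anti-CD93 libraries. Of the 10 markers 3 were higher in both anti-CD93 libraries and 0 lower, beside 20.1% and 19.7% of all tested genes. Epcam was at 34.1 and 41.1 CPM with anti-CD93 and 21.7 and 23.4 CPM with control IgG. Cdh1 was at 351 and 290.0 CPM with anti-CD93 and 216 and 210.4 CPM with control IgG, and Muc1 at 78.5 and 72.0 against 35.2 and 48.1 CPM. Cdh1 and Muc1 were picked after their values were seen. Aldh1a3 amounted to 2.39% and 1.89% of the marker sum with anti-CD93 and to 0.872% and 0.852% with control IgG, and to 177% and 97.2% of Epcam against 71.4% and 93.6%. Its ratio to Muc1 was 76.8% and 55.5% with anti-CD93 and 44.1% and 45.7% with control IgG, and to Cdh1 17.2% and 13.8% against 7.16% and 10.4%. These ratios were added after the values were seen, and the part of epithelial cells in the Aldh1a3 difference was not tested.

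The summed markers of other cells overlapped between treatments, apart from the pericyte and smooth muscle list and the lymphatic list, which were lower in both anti-CD93 libraries. Most of the pericyte and smooth muscle sum was Mcam, at 845 and 802 CPM with anti-CD93 and 906 and 957 CPM with control IgG. Most of the lymphatic sum was Flt4, at 430 and 414 CPM with anti-CD93 and 451 and 479 CPM with control IgG. The sums without these genes were not compared. Fibroblast markers summed to 1901 and 2368 CPM with anti-CD93 and to 2274 and 2944 CPM with control IgG, and markers of pericytes and smooth muscle to 1391 and 1218 CPM with anti-CD93 and to 1402 and 1432 CPM with control IgG. Of the 10 pericyte and smooth muscle markers 5 were lower in both anti-CD93 libraries and 1 higher, beside 19.7% and 20.1% of all tested genes. Leukocyte markers came to 35.7 and 29.8 CPM with anti-CD93 and to 19.3 and 41.4 CPM with control IgG, with Cd3e at 0 in at least 1 library. The mesothelial sum was 53.7 and 60.7 CPM with anti-CD93 and 60.8 and 50.5 CPM with control IgG, nearly all of it Msln, and Upk3b, Wt1, Lrrn4 and Upk1b were each at 0 in some library. Skin keratinocyte markers stayed between 4.86 and 8.57 CPM. Adipocyte markers summed to 796 and 553 CPM with anti-CD93 and to 577 and 412 CPM with control IgG. Nearly all of this was Fabp4, at 789 and 550 against 573 and 403 CPM. Adipoq had 0 reads in each anti-CD93 library and 2 in each control IgG library. Plin1 had 4 reads in control IgG replicate 2 and 0 elsewhere. The adipocyte sum is thus in effect a level of Fabp4. The endothelial sum was 8999.7 and 8755 CPM with anti-CD93 and 8993 and 10661 CPM with control IgG, and 6 of its 10 markers were lower and 0 higher in both anti-CD93 libraries, beside the same shares of all tested genes. The lymphatic sum was 541 and 566 CPM with anti-CD93, below 623 and 606 CPM with control IgG. Their part in the values of the retinoic acid genes was not tested.

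**Figure D5:**
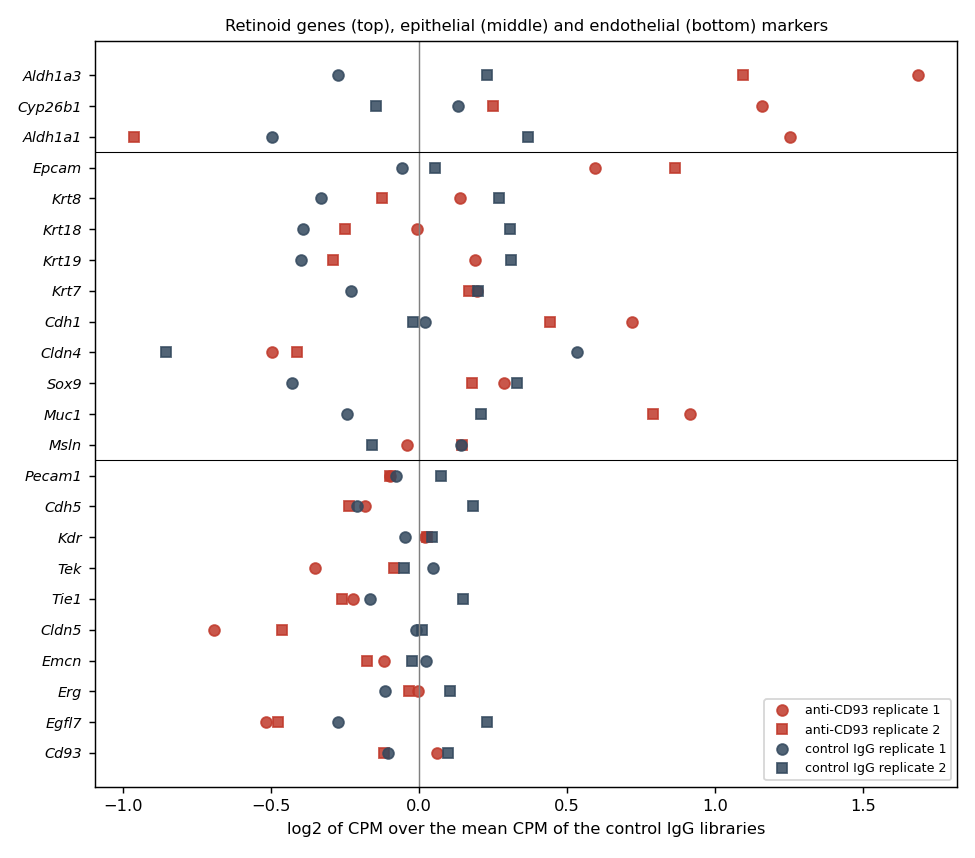
Log2 of the CPM in each library over the mean CPM of the control IgG libraries, for Aldh1a3, Cyp26b1 and Aldh1a1 (top), the 10 tumour epithelial markers (middle) and the 10 endothelial markers (bottom), with red points for anti-CD93, dark points for control IgG, circles for replicate 1 and squares for replicate 2. Both red points lie to the right of both dark points for Aldh1a3, Cyp26b1, Epcam, Cdh1 and Muc1, while the keratin rows overlap.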

How the data were processed

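Per the labels' protocols, total RNA of sorted cells was made into libraries with a stranded low-input kit and sequenced in pairs of 150 bases. The submitters' processing notes name STAR 2.7.5b and DESeq2 1.28.1. The deposited values are raw read counts per gene name, made by the authors with featureCounts 2.0.1 on GENCODE vM25 of GRCm38, per the file headers. The command in the header sets neither pairing nor strand, which means that mates were counted singly (66.3% to 74.8% of counts from 1 to 10 were even), and antisense reads cannot be told apart. Another deposited table, called normalized, differed from it in 0 of 221468 cells and was not used further.

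Low genes were removed with filterByExpr (minimum count 10), and libraries were scaled by TMM. The groups were compared with the robust quasi-likelihood test of edgeR 4.0.16 in R 4.3.3, with group as the only term and Benjamini-Hochberg adjustment over all 16945 tested genes. The 9 genes, the 64 pathway genes and the marker lists were chosen with earlier results of these data known. All 131 listed genes were found in the table. Beside the 9 genes, the genes named are up to 3 per role with the most reads per exon length, the 5 profiles nearest to Aldh1a3, set marker genes and Cd93. Of the genes so named 2 are not reported here. Other genes named by their values are said to be so, and Bnip3 and Adgrl3 are named as the neighbours of Aldh1a3 in rank. CPM per kb divides by the merged exon length of the deposited table. Coding identity is that of the longest open reading frames of GENCODE vM21 transcripts.

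Alternatives were DESeq2 size factors (RLE), library size alone, no count filter, DESeq2 1.42.0, limma-voom (limma 3.58.1), the replicate number as a block, halved counts for the 2 mates, and each library left out in turn. Between 9364294 and 17813993 reads per library and 2 libraries per group limit the precision.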

Additional observations from a re-analysis of the deposited data

How the results depend on the processing

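The count of genes past the threshold was 0 with edgeR as described, and also 0 with RLE scaling, library size alone, limma-voom and halved counts. It was 48 with no count filter, 5 with DESeq2 and 14 with the replicate number as a block, and 0 to 4549 with 1 library left out (0 without anti-CD93 replicate 1, 1 without anti-CD93 replicate 2, 4549 without control IgG replicate 1 and 13 without control IgG replicate 2). A lone library was assumed to vary like the other group. The cause was not tested. Deviations from the group means were hardly correlated between same-numbered libraries (-0.016 across 16945 genes). With 2 libraries per group this cannot decide whether the replicate numbers pair the libraries.

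The log2 fold change of Aldh1a3, which chose the set and is a description under every setting, was 1.43 with RLE, 1.42 with library size alone, 1.44 with limma-voom, 1.43 with halved counts, 1.48 with no count filter, 1.44 with DESeq2 and 1.41 under the replicate block. It was 1.11 without anti-CD93 replicate 1, 1.69 without anti-CD93 replicate 2, 1.20 without control IgG replicate 1 and 1.70 without control IgG replicate 2. Aldh1a3 was among the genes called with no count filter, with DESeq2 and under the replicate block. Those calls use the values that chose it and are no separate evidence. Without control IgG replicate 1 the Rarg value was -1.02. The pathway median of -0.14 was -0.33 when anti-CD93 replicate 2 was left out, its lowest value, and 0, its highest, when control IgG replicate 2 was.

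Leaving out 1 library turned the sign of, or brought to 0, the log2 fold changes of Aldh1a1 (-0.94 to 1.26), Rarb (-1.01 to 0), Stra6 (-0.87 to 0.04), Rbp4 (0 to 0.38), Dgat1 (-0.41 to 0.07), Rdh10 (-0.02 to 0.32), Dhrs3 (-0.04 to 0.18), Adh5 (-0.25 to 0.04), Aldh1a7 (-1.37 to 0.41), Fabp5 (-0.42 to 0.30), Cyp26a1 (-1.69 to 0.28) and Rxra (-0.28 to 0.01). Fabp5 was also 0.04 with no count filter and 0 with DESeq2. Rarb, Crabp2 and Aldh1a2 rested on 0 to 27 reads per library, and what difference could be detected at that depth was not tested.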
